A study of Oryctolagus cuniculus with 12 samples.

Results

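TEAD1 is a DNA-binding partner of the Hippo pathway. It was examined together with 9 other genes of that pathway in rabbit cornea. They were its paralogs TEAD2, TEAD3 and TEAD4, the co-activators YAP1 and WWTR1 (also called TAZ), the kinases LATS1 and LATS2, and the target genes AMOTL2 and CTGF. The set was selected by gene name from the deposited expression table, because TEAD1 stood far lower in the RL group than in control, and so the values that chose it are TEAD1's own in RL against control. TEAD1 is therefore described below without a test, and the question asked of the 9 other members is whether they share its pattern. The table lists 29076 genes, and all 10 members are among them. All 10 also passed the filter on low counts that left 18171 genes for testing.

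The libraries were RNA sequencing libraries of cornea from rabbits (Oryctolagus cuniculus) aged 6 months and given a normal diet, per the labels. There were 12, with 3 in each of the 4 groups labelled control, blue light (blue_light below), GL and RL. Each library, controls included, carries the same label text of light exposure for 6 weeks, and no genotype, strain or further agent is named for any group. The sources used here give no wavelength or intensity and do not say what GL and RL stand for. Nothing in the labels ties libraries to individual animals, so p-values below measure the spread between the libraries of a group, which could be technical.

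In the Hippo pathway, the kinases STK3 and STK4 activate LATS1 and LATS2, which phosphorylate YAP1 and WWTR1 and keep them out of the nucleus. When the kinases are quiet, YAP1 and WWTR1 enter the nucleus. They have no DNA-binding domain of their own and act mainly through the TEAD proteins, which bring them to genes such as CTGF, CYR61 and AMOTL2. The pathway is known for its part in organ size, wound closure and the response of cells to a stiff matrix, and in cornea YAP1 and WWTR1 have been studied in epithelial renewal and in stromal cells. Much of the regulation acts on protein location, which RNA levels do not measure.

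Total estimated counts ran from 40.9 to 64.7 M (mega) per library. These counts rose in steps of about 3.77 per fragment, so the totals stand for about 10.9 to 17.2 M fragments. A floor of 3 fragments corresponded to 0.175 to 0.261 CPM (counts scaled to a common library size by TMM, a trimmed mean). The floor covers counting error only. Markers of corneal epithelium and stroma were abundant in every library, with summed levels of 24310 to 43690 and 34049 to 51372 CPM, and those of corneal endothelium summed to 2427 to 5402 CPM. Markers of the lens were present everywhere and uneven. A set of 5 libraries (all blue_light, control replicate 1 and RL replicate 1) held 2389 to 2563 genes at counts of 1 to 20, against 767 to 1461 in the 7 others. In 3 libraries (blue_light 1, control 2 and GL 3) retinal transcripts were high. In bulk tissue, fewer cells of a type and less RNA per cell cannot be told apart.

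TEAD1 is also known as TEF-1 and is encoded on rabbit chromosome 1, at 154444263 to 154726630 on the plus strand in the coordinates of the deposited table, which lists 8 transcripts for it and whose build the sources used here do not name. Its level was 232, 208 and 197 CPM in the 3 controls, 203, 259 and 204 CPM in blue_light, 230, 199 and 246 CPM in GL, and 40.7, 24.8 and 18.2 CPM in RL. All 3 RL libraries thus lay far below the 9 others, while control, blue_light and GL overlapped. Group means were 213 ± 18.0 CPM (SD, n = 3) in control and 27.9 ± 11.6 CPM in RL, so that RL stood at 13.1% of control. The fitted log2 fold of RL minus control was −2.93 ± 0.26 (SE, 95% interval −3.50 to −2.36). In blue_light the log2 fold against control was 0.06 ± 0.24, and in GL it was 0.08 ± 0.24. The log2 folds of RL minus blue_light and RL minus GL were −2.99 ± 0.26 and −3.01 ± 0.26. These contrasts share the control or the RL libraries with one another.

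The transcript remained detected in RL. Estimated counts there were 1880, 1460 and 1098, well above the floor. On the FPKM scale, which is per transcript length, TEAD1 had a mean of 23.5 in control, which exceeded the mean of 81.3% of the genes tested. In RL its mean FPKM was 2.96, above 41.0% of the genes tested, so it went from the upper range of corneal transcripts to below the middle. Of the 18171 genes tested, 93 (0.512%) had all RL libraries below all 9 others, and TEAD1 is one of them. None of the 60 pathway genes tested besides TEAD1 had its 3 RL libraries below all 9 others, and none had them above. Of all 18171 genes, 77 had them above. With such small shares among all genes, none among 60 is no result about the pathway.

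Lens markers were lower than control in RL and also in GL. Their median log2 fold was −1.44 in RL and −1.74 in GL, with none of the 8 called by edgeR in either contrast. An unadjusted p below 0.05 was found for 2 in RL and 3 in GL (4.74% and 8.10% of all genes). Below all controls lay 6 of the 8 in RL and 8 in GL. Of all 18171 genes tested, 846 lay below all controls in RL and 1681 in GL. Counting both directions, 8.32% and 18.5% of all genes did not overlap. All 8 lens markers were in the table, none was at 0 throughout a group, and their summed level was 3370 to 5495 CPM in control, 1471 to 10620 in blue_light, 548 to 2398 in GL, while RL held 525 to 2028. The GL range overlapped that of RL. The sum of the 6 vascular endothelial markers was 81.7 to 98.3 CPM in control and 62.9 to 109 in blue_light. It was 99.7 to 128 in GL and 119 to 147 in RL, and both of these groups lay above every control. Most of that sum was KDR, at 111 CPM in RL 1 and a mean of 110 in RL 2 and RL 3. Of the 5 tested, 5 had a log2 fold above 0 in RL minus control with none called. Just 1 of the 5 did not overlap control, beside 8.32% of all genes. Of the 6 markers, 1 was at 0 throughout each of the blue_light, GL and RL groups. Corneal epithelial markers, with 7 of 8 in the table and none at 0 throughout a group, summed to 29012, 42612 and 43690 CPM in RL 1, RL 2 and RL 3 and to 24310 to 32820 CPM in control. Their median log2 fold in RL minus control was 0.34, and 3 of the 7 had an unadjusted p below 0.05 with none called. RL 2 and RL 3 had larger epithelial sums than RL 1, and also more CTGF, CYR61 and AMOTL2. Most of that sum was KRT12, at 20124 CPM in RL 1 and a mean of 27202 in RL 2 and RL 3. KRT3, KRT5, AQP5 and CLDN4 also had a higher mean in RL 2 and RL 3. PAX6 and TP63 went the other way, at 559 and 230 CPM in RL 1 and means of 330 and 136 in RL 2 and RL 3. RL 1 is also in the set of 5 libraries, while RL 2 and RL 3 are not. The part of the lens, vascular and epithelial markers in the RL values was not tested. Skeletal muscle is a tissue where TEAD1 is well known, and its 6 listed markers present in the table summed to 0.0829 to 4.46 CPM over the 12 libraries.

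TEAD2, TEAD3 and TEAD4 bind the same DNA element as TEAD1 and use the same co-activators. TEAD2, known from early development, was at 35.5, 40.8 and 33.5 CPM in control, 30.8, 36.9 and 56.4 CPM in blue_light, 36.6, 53.7 and 47.9 CPM in GL, and 28.6, 53.7 and 36.5 CPM in RL. The RL values straddle the controls, and the log2 fold was 0.11 ± 0.27 (SE, 95% interval −0.47 to 0.70, edgeR adjusted p = 1). TEAD3, known from placenta and epithelia, was at 57.6, 69.9 and 81.5 CPM in control, 63.1, 62.7 and 78.8 CPM in blue_light, 82.0, 88.4 and 65.7 CPM in GL, and 52.8, 70.3 and 70.6 CPM in RL. The groups overlapped here too, with a log2 fold of −0.11 ± 0.19 in RL (95% interval −0.52 to 0.31, edgeR adjusted p = 1). TEAD4, known from the trophectoderm and skeletal muscle, was the least abundant, at 4.94, 4.45 and 4.64 CPM in control, 5.40, 9.22 and 4.85 CPM in blue_light, 2.52, 4.99 and 3.57 CPM in GL, and 6.43, 8.42 and 4.28 CPM in RL. Its RL libraries overlapped the controls, and the log2 fold was 0.45 ± 0.38 (95% interval −0.37 to 1.26, edgeR adjusted p = 1).

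None of the 3 paralogs passed the test in RL against control, where 0.0110% of all genes did (2 of 18171). Their intervals do not show that the paralogs were unaffected: a log2 increase of up to 0.70 in TEAD2 or 1.26 in TEAD4 lies within them. No other entry of the table carries a TEAD family description.

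**Figure D1:**
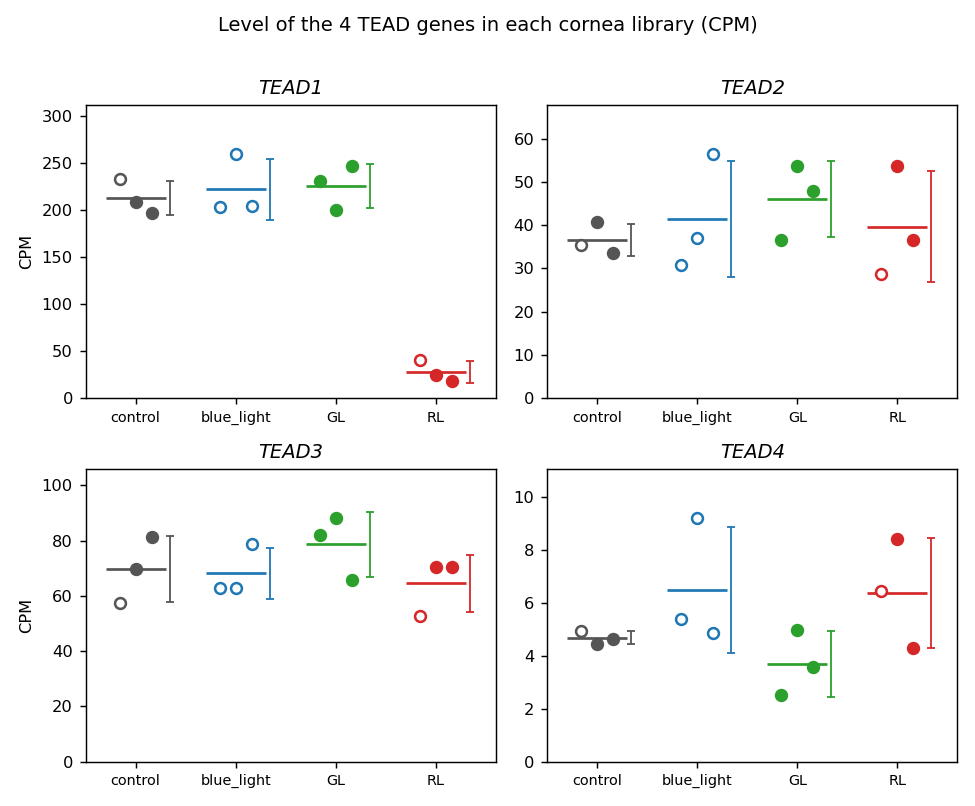
Levels of TEAD1, TEAD2, TEAD3 and TEAD4 in CPM (y axis, linear, starting at 0 and set separately for each gene) in the 12 libraries, by group (x axis). Points are libraries, open circles the 5 libraries with more rare transcripts, lines group means and bars SD (n = 3); TEAD1 in RL lies at 18.2 to 40.7 CPM, apart from the 9 other libraries, while the RL points of the 3 paralogs mix with the rest.

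Since FPKM is per length, the 4 TEAD genes can be added within a library. Summed TEAD FPKM was 70.6, 72.7 and 73.9 in control, 68.1, 77.3 and 85.0 in blue_light, 76.1, 84.1 and 76.3 in GL, and 43.3, 59.3 and 48.5 in RL. Every RL library had a smaller sum than every other library, with means of 50.4 ± 8.16 in RL and 72.4 ± 1.68 in control (SD, n = 3). Without TEAD1, the sum of TEAD2, TEAD3 and TEAD4 was 47.4 ± 8.96 FPKM in RL and 49.0 ± 3.86 in control, and these overlapped. The lower total in RL therefore lay in TEAD1, the gene that chose the set, and no test is given for it.

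The make-up of the TEAD pool differed accordingly. The TEAD1 share of the summed FPKM was 32.4% ± 3.82 in control, 32.2% ± 5.35 in blue_light and 30.6% ± 4.76 in GL (SD, n = 3). It was 6.14% ± 3.52 in RL, where the 3 libraries had 10.2%, 4.29% and 3.93%. TEAD3 was the largest fraction in RL with a mean of 46.2%, followed by TEAD2 with 39.7% and TEAD4 with 7.96%, although TEAD2 (45.5%) exceeded TEAD3 (41.5%) in RL 2. By counts, which favour long transcripts, the TEAD1 share was 20.5% in RL. On that measure it was 65.7% in control, 65.6% in blue_light and 63.6% in GL. In control, blue_light and GL, TEAD1, TEAD2 and TEAD3 had mean FPKM values between 19.7 and 28.6, while TEAD4 had 2.34 to 4.28. In RL, TEAD1 at 2.96 ± 1.31 FPKM lay beside TEAD4 at 4.01 ± 1.25, and these did not differ beyond their spread.

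**Figure D2:**
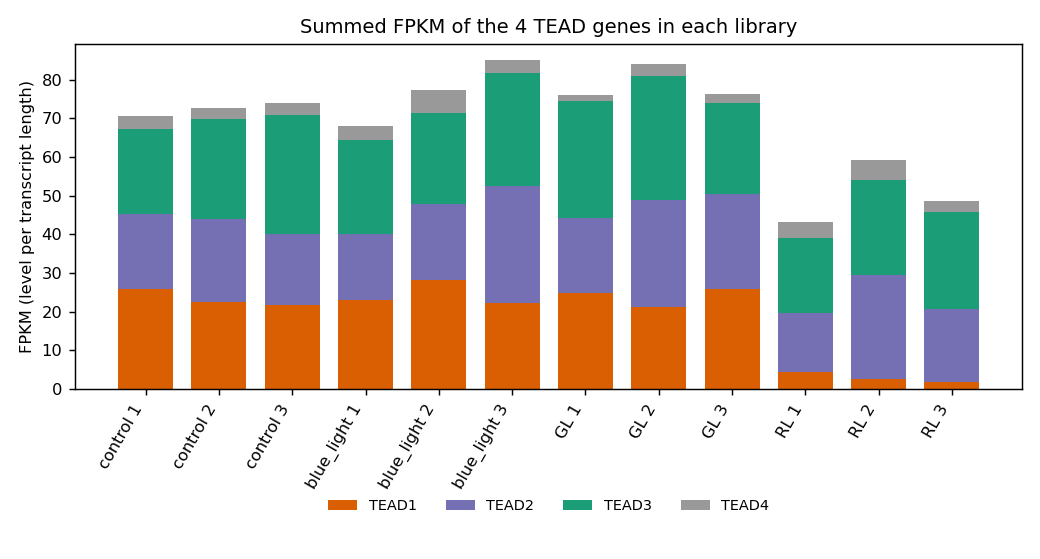
FPKM of TEAD1, TEAD2, TEAD3 and TEAD4 stacked for each of the 12 libraries (x axis: library, in group order; y axis: summed FPKM from 0). The 3 RL columns reach 43.3 to 59.3 FPKM against 68.1 to 85.0 in the others, and their TEAD1 segment is 3.93% to 10.2% of the column.

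YAP1, the co-activator that gives the pathway its best known output, is encoded on the same chromosome sequence as TEAD1, at 114544236 to 114692113 on the minus strand. It was at 285, 266 and 313 CPM in control, 256, 292 and 237 CPM in blue_light, 192, 205 and 197 CPM in GL, and 353, 210 and 261 CPM in RL. RL spanned the control range on both sides, with a log2 fold of −0.07 ± 0.18 (95% interval −0.47 to 0.33, edgeR adjusted p = 1). WWTR1, which encodes the co-activator TAZ, was at 119, 95.6 and 97.1 CPM in control, 111, 140 and 127 CPM in blue_light, 112, 121 and 137 CPM in GL, and 141, 130 and 132 CPM in RL. Its RL libraries lay above all 3 controls, by a log2 fold of 0.37 ± 0.15 (95% interval 0.04 to 0.70, unadjusted p = 0.0305, edgeR adjusted p = 1). WWTR1 was thus the only member of the 9 whose RL and control libraries did not overlap, where 8.32% of all genes did not, and it did not pass the test.

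Per length, YAP1 was the more abundant co-activator in every library, with 1.42 to 3.19 times the FPKM of WWTR1. The ratio was 2.37, 2.75 and 3.19 in control, 2.27, 2.07 and 1.85 in blue_light, 1.69, 1.68 and 1.42 in GL, and 2.48, 1.59 and 1.95 in RL. All 3 GL ratios lay below every control and blue_light ratio, and all 3 blue_light ratios lay below every control. RL 2, at 1.59, lay within the GL range. Summed FPKM of YAP1 and WWTR1 divided by summed TEAD FPKM was 1.08 ± 0.0965 in control, 1.02 ± 0.150 in blue_light, 0.789 ± 0.0462 in GL, while RL had 1.62 ± 0.591 (SD, n = 3). In RL the ratio was 2.25, 1.07 and 1.54, so RL 2 fell within the controls' range of 0.976 to 1.16. These ratios contain TEAD1 and are given as a description.

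The kinase LATS1, which phosphorylates YAP1 and WWTR1, was at 84.8, 59.1 and 66.0 CPM in control, 76.8, 90.9 and 25.2 CPM in blue_light, 28.4, 58.7 and 37.3 CPM in GL, and 106, 51.8 and 66.3 CPM in RL. It was one of the most variable members within groups, with a within-group SD of 0.64 on the log2 scale, and its log2 fold in RL was 0.09 ± 0.42 (95% interval −0.81 to 0.99, edgeR adjusted p = 1). LATS2, its paralog and also a target of YAP1, was steadier, with 90.9, 93.1 and 101 CPM in control, 77.2, 89.4 and 95.9 CPM in blue_light, 112, 107 and 120 CPM in GL, and 76.9, 102 and 99.7 CPM in RL. The log2 fold of LATS2 in RL was −0.03 ± 0.15 (95% interval −0.37 to 0.30, edgeR adjusted p = 1), and RL overlapped the controls. Another 4 entries of the table are described as LATS2, and together they held a count of 8 over the 12 libraries.

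Among the targets, AMOTL2 encodes an angiomotin-like scaffold that is switched on by YAP1 and holds it at cell junctions. It was at 198, 226 and 175 CPM in control, 166, 174 and 226 CPM in blue_light, 255, 291 and 297 CPM in GL, and 128, 344 and 226 CPM in RL. RL held both the lowest and the highest library of all 12, and the log2 fold was 0.22 ± 0.28 (95% interval −0.38 to 0.83, edgeR adjusted p = 1). CTGF, a secreted matrix protein now named CCN2 and the most used readout of YAP1 and TEAD activity, was at 178, 240 and 209 CPM in control, 152, 263 and 148 CPM in blue_light, 106, 248 and 183 CPM in GL, and 135, 462 and 269 CPM in RL. The RL libraries lay on both sides of the controls, with a log2 fold of 0.47 ± 0.40 (95% interval −0.41 to 1.34, edgeR adjusted p = 1). Without RL 2, the library highest in both, the log2 folds of AMOTL2 and CTGF were −0.16 and −0.04. Over 19 alternative fits they ran from −0.16 to 0.51 for AMOTL2 and from −0.04 to 0.81 for CTGF. The sign changed in 1 of the 19 for each gene.

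Outside the 10 members, CYR61 and ANKRD1 were looked up alongside as further targets. CYR61, also known as CCN1 and a relative of CTGF, was at 62.9, 67.1 and 62.5 CPM in control, 44.4, 88.6 and 57.5 CPM in blue_light, 41.8, 62.8 and 77.3 CPM in GL, and 49.7, 157 and 172 CPM in RL. RL 2 and RL 3 were the highest of the 12 libraries and RL 1 lay below every control, and the log2 fold of 0.98 ± 0.39 did not pass the test (unadjusted p = 0.0279, edgeR adjusted p = 1). ANKRD1, a strong YAP1 target in other tissues, was near 0 everywhere and did not exceed 0.323 CPM.

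In RL minus control, none of the 9 members other than TEAD1 passed edgeR's test in either direction. As 0.0110% of all genes passed it, none among 9 is no result about them. Of the 9, 1 (WWTR1) had an unadjusted p below 0.05, beside 4.74% of all genes. DESeq2 and limma also called none of the 9. Their median log2 fold was 0.11, beside 0.00 over all genes tested. By fitted log2 fold, a drop like that of TEAD1 was not seen in any paralog, co-activator, kinase or target of the set. The lowest of the 9 log2 folds was −0.11, in TEAD3. The lowest lower bound of their 95% intervals was −0.81, in LATS1.

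**Figure D3:**
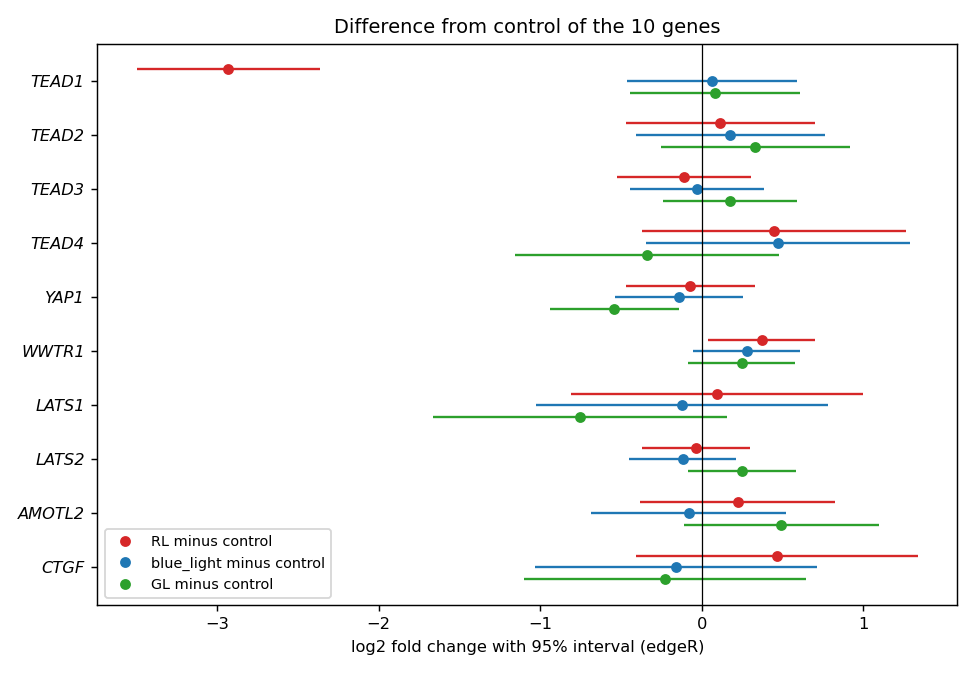
Log2 folds of the 10 members (y axis, ordered by role) with 95% intervals as bars, in RL, blue_light and GL each minus control (x axis: log2 fold, with 0 marked); the 3 contrasts share the control libraries. TEAD1 in RL stands at −2.93, and the 9 other members lie between −0.11 and 0.47 in that contrast.

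Values within the 2 sets of libraries are given as a description. Within the 5 libraries with more rare transcripts, the log2 ratio of RL to control rests on RL 1 and control 1 alone, and among the 7 others on the means of RL 2 and RL 3 and of control 2 and control 3. TEAD1 had log2 ratios of −2.51 and −3.24 in that order. YAP1, with 0.31 and −0.30, AMOTL2, with −0.63 and 0.51, and CTGF, with −0.40 and 0.70, had opposite signs in the 2 sets. The target gene CYR61, which is no member, had −0.34 and 1.35. RL 1 was the lowest of the 3 RL libraries for AMOTL2, CTGF and CYR61. WWTR1 was higher in RL within both sets, by 0.24 and 0.45, and TEAD3 was lower in both, by −0.13 and −0.10.

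The wider pathway was read from 7 lists that overlap in part, with 65 genes besides TEAD1, of which 63 were in the table and 60 were tested. In RL minus control, none of the 60 passed the test, 3 had an unadjusted p below 0.05 (WWTR1, CYR61 and ASAP1), beside 4.74% of all genes, 33 had a fitted log2 fold above 0 and 27 below, and the median was 0.03. Just 2 of the 60 (3.33%) had groups that did not overlap, beside the 8.32% of all genes given above. The core kinase list of 7 genes (STK3, STK4, SAV1, MOB1A, MOB1B, LATS1 and LATS2) had 5 log2 folds above 0 and 2 below, all between −0.04 and 0.14. Among them the activating subunit gene MOB1A stood at 0.14 ± 0.18 and the scaffold SAV1 at 0.10 ± 0.16.

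The 20 tested upstream regulators, which carry signals from junctions, polarity proteins and the cytoskeleton to the kinases, were split 10 above and 10 below 0, with a median log2 fold of −0.01. RASSF1, a scaffold of the STK kinases, stood at 0.24 ± 0.21, STRN3, a subunit of the phosphatase complex that opposes them, at 0.30 ± 0.29, and the polarity gene DLG5 at −0.17 ± 0.16. Of the 9 scaffolds that bind YAP1, 6 had a log2 fold above 0 and 3 below, with a median of 0.10. AJUBA, a LIM protein that restrains LATS kinases, stood at 0.17 ± 0.19. The VGLL genes encode cofactors that compete with YAP1 for TEAD proteins. VGLL1 stood at −0.18 ± 0.26, VGLL3 at 0.39 ± 0.77 and VGLL4 at −0.03 ± 0.21, and VGLL2 had a count of 0 in all 12 libraries.

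Of the 22 listed targets of YAP1 and TEAD, 21 were in the table and 19 were tested. Their log2 folds in RL minus control had 10 above 0 and 9 below, with a median of 0.02, and none passed the test. ASAP1, a regulator of ARF proteins and focal adhesions, was at 70.2, 113 and 107 CPM in control, 73.0, 82.7 and 35.8 CPM in blue_light, 65.1, 71.5 and 47.3 CPM in GL, and 48.2, 54.7 and 58.6 CPM in RL. Its RL libraries lay below all 3 controls (log2 fold −0.84 ± 0.29, unadjusted p = 0.0122, edgeR adjusted p = 1) but within the range of blue_light. DOCK5, an activator of RAC proteins, stood at −0.38 ± 0.24 with overlapping groups. ASAP1 and CYR61, the 2 targets with an unadjusted p below 0.05, thus stood on opposite sides of 0.

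**Figure D4:**
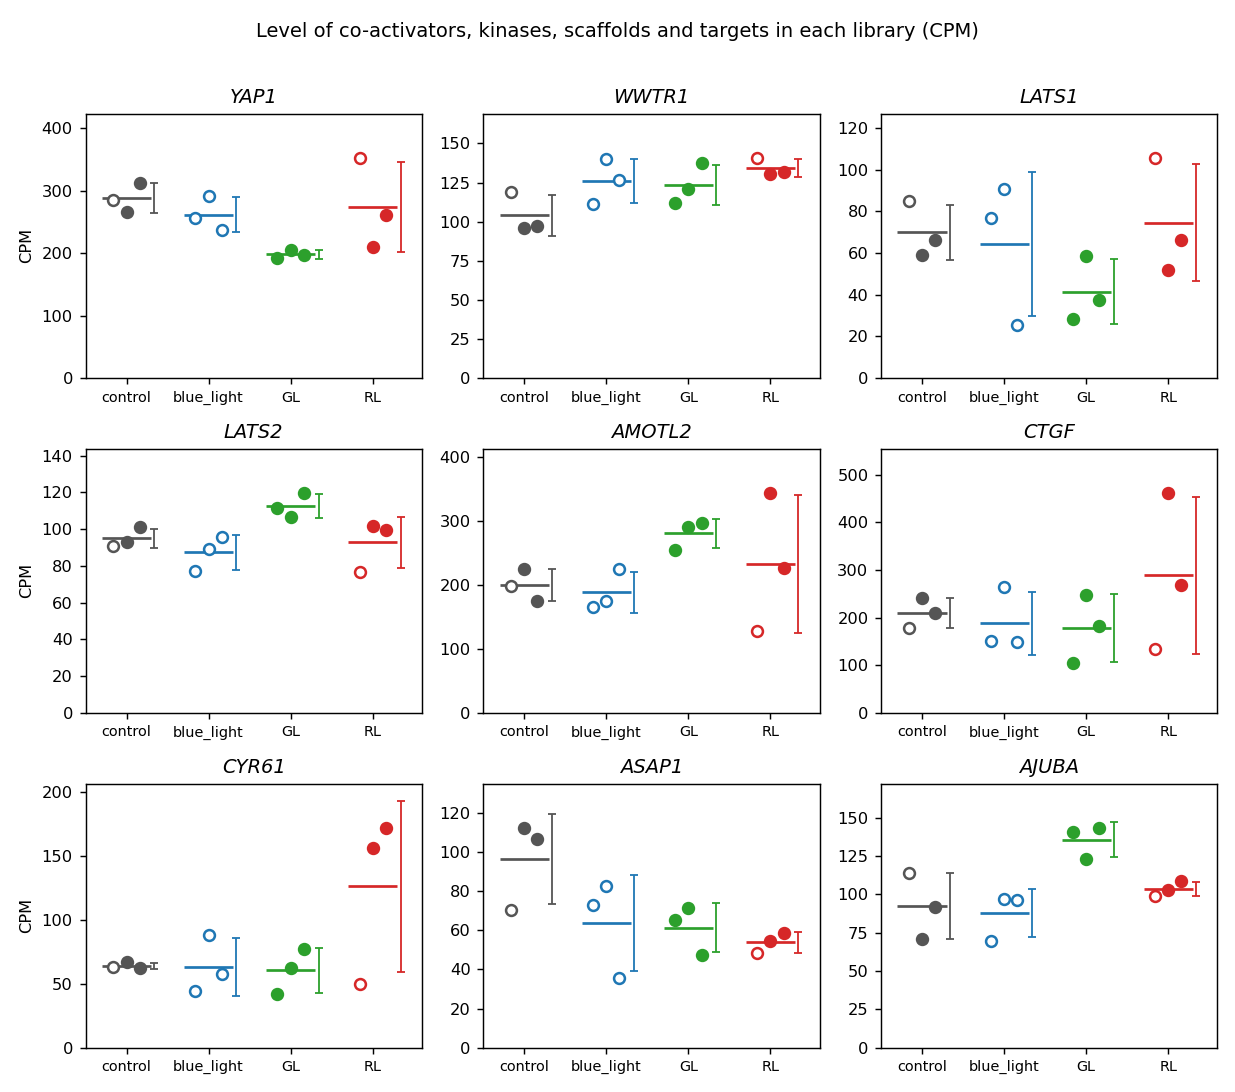
Levels in CPM (y axis, linear, starting at 0 and set separately for each gene) of co-activators, kinases, targets and the scaffold gene AJUBA in the 12 libraries by group (x axis). Points are libraries, open circles the 5 libraries with more rare transcripts, lines means and bars SD (n = 3); YAP1 in GL lies at 192 to 205 CPM, below all controls, and CTGF in RL spreads from 135 to 462 CPM.

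In blue_light against control no member stood apart. None of the 9 members besides TEAD1 passed the test there, none had an unadjusted p below 0.05 and none had groups that did not overlap. Over all genes, 0.0165% were called, 3.26% had an unadjusted p below 0.05 and 9.0% did not overlap. With such small shares, none among 9 is no result about the members. WWTR1 had a log2 fold of 0.28 ± 0.15 and YAP1 of −0.14 ± 0.18. Of the 60 pathway genes, 29 had a log2 fold above 0 and 31 below. None of them passed the test and none had an unadjusted p below 0.05, beside the 3.26% of all genes.

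GL against control held the clearest separations of the other members, although none passed the test (0.0550% of all genes were called). YAP1 was lower in all 3 GL libraries than in any control, with 198 ± 6.75 CPM against 288 ± 23.6 (SD, n = 3), a log2 fold of −0.54 ± 0.18 (unadjusted p = 0.0117, edgeR adjusted p = 0.554). LATS1 was lower without overlap as well (log2 fold −0.75 ± 0.42, edgeR adjusted p = 0.623), with GL 2 at 58.7 CPM just under control 2 at 59.1. LATS2 (log2 fold 0.25 ± 0.15, edgeR adjusted p = 0.654) and AMOTL2 (log2 fold 0.49 ± 0.28, edgeR adjusted p = 0.627) were higher in every GL library than in every control. These were 4 of the 9 members, where 18.5% of all genes had groups that did not overlap in this comparison.

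The scaffold gene AJUBA was also higher in GL than in all controls (log2 fold 0.56 ± 0.19, unadjusted p = 0.0121, edgeR adjusted p = 0.557). Among the 60 pathway genes 10 did not overlap, 5 higher and 5 lower (16.7%), which is close to the 18.5% of all genes, and 4 had an unadjusted p below 0.05 (8.10% of all genes did) with none called. Markers of corneal epithelium summed to 38030 to 38571 CPM in GL and 24310 to 32820 CPM in control, and those of lens to 548 to 2398 and 3370 to 5495 CPM. Their part in the GL values of YAP1, LATS1, LATS2 and AMOTL2 was not tested.

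Set against the other light groups, RL showed TEAD1 low and few other separations. In RL minus blue_light, where 0.0110% of all genes were called and 8.99% did not overlap, none of the 9 members passed the test or had groups apart. In RL minus GL, where 0.0715% were called and 13.2% did not overlap, none of the 9 passed the test. YAP1 was higher in RL than in GL without overlap (log2 fold 0.47 ± 0.18, unadjusted p = 0.0240, edgeR adjusted p = 0.548), and LATS2 was lower without overlap (log2 fold −0.28 ± 0.15, edgeR adjusted p = 0.603). TEAD4 had a log2 fold of 0.79 ± 0.38 in RL minus GL with overlapping groups (edgeR adjusted p = 0.581).

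The genes around TEAD1 on chromosome 1 were read to see whether its level moved with its surroundings. Upstream lie PARVA, an actin-linked focal adhesion gene that ends upstream of it at −195.84 kb, then MICAL2, an actin oxidoreductase gene, and DKK3, a secreted protein gene of the dickkopf family. Downstream lie RASSF10, which starts 50.87 kb after TEAD1, ARNTL, the clock gene also called BMAL1, and BTBD10. In RL minus control the log2 fold of PARVA was −0.13 ± 0.23, that of MICAL2 −0.03 ± 0.23 and that of DKK3 −0.34 ± 0.30. RASSF10 stood at 0.75 ± 0.43, ARNTL at 0.64 ± 0.19 (unadjusted p = 0.00531, edgeR adjusted p = 0.901) and BTBD10 at 0.11 ± 0.23.

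Over the 38 genes tested within 3000 kb on either side of TEAD1, none passed the test and only ARNTL had an unadjusted p below 0.05, beside 0.0110% of all genes called and 4.74% with an unadjusted p below 0.05. With so few calls among all genes, none among 38 is no result about this stretch. The 30 of these with a mean of at least 1 CPM had log2 folds between −0.61 (PTH, parathyroid hormone) and 1.01 (LOC103350395). The other 8 were rarer, and over all 38 the fitted log2 folds ran from −5.27 to 2.67. The lowest was that of LOC108177487, the nearest entry outside the span of TEAD1, at −2.349 kb, which was at 0.323 CPM in blue_light 1, 0.261 CPM in control 1 and 0.697 CPM in GL 1, and had a count of 0 in the 9 other libraries, so that no fold can be read from it. LOC100349725, an entry placed within the span of TEAD1 on the same strand and described as an adiponectin receptor, was at 0.00 to 1.56 CPM, and reads of overlapping entries may have been split between them.

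**Figure D5:**
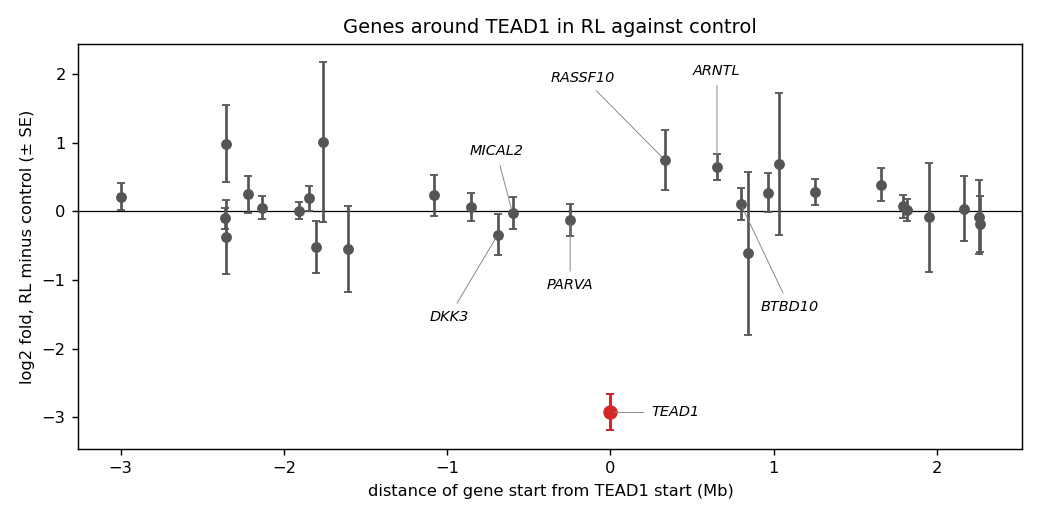
Log2 fold of RL minus control with SE bars (y axis) for TEAD1 and the genes with a mean of at least 1 CPM within 3000 kb, against the distance of each gene's start from that of TEAD1 (x axis, Mb). TEAD1 stands at −2.93 and the 30 other genes lie between −0.61 and 1.01.

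Likeness to TEAD1 was measured by Pearson's r of log2 CPM over the 12 libraries, among tested genes with a symbol. Since the RL group sets TEAD1's pattern, r mostly ranks genes by how low they are in RL, and r over the 9 libraries without RL is given beside it as a description. ZBTB10, a zinc finger repressor gene, was the most alike with r = 0.97 (0.62 without RL). It was at 43.5, 36.7 and 38.5 CPM in control, 35.0, 46.2 and 32.8 CPM in blue_light, 34.2, 38.2 and 39.0 CPM in GL, and 20.1, 15.2 and 10.3 CPM in RL, so that all 3 RL libraries lay below the 9 others. Its log2 fold in RL minus control was −1.38 ± 0.24, given without a test because the gene was picked for its likeness to TEAD1.

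DIP2C, a gene of the disco-interacting protein family, had r = 0.91 (−0.05 without RL). Its levels were 39.4, 48.0 and 39.1 CPM in control, 44.7, 49.4 and 45.0 CPM in blue_light, 47.8, 44.0 and 35.0 CPM in GL, and 15.6, 21.4 and 19.1 CPM in RL, again with RL below all others. The log2 fold was −1.17 ± 0.18 in RL minus control and −1.17 ± 0.18 in RL minus GL, again without a test. EFCAB6 (r = 0.94), NYX (r = 0.92) and LEKR1 (r = 0.92) were low throughout, at most 2.85 CPM. EFCAB6 and NYX had a count of 0 in all 3 RL libraries and LEKR1 in 2 of them, levels too close to the floor for a fold.

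The genes most opposed to TEAD1 were MOS (r = −0.92), which never exceeded 0.323 CPM, PMF1 (r = −0.88) and SDHC (r = −0.86). PMF1, a kinetochore gene, was at 4.09 ± 0.410 CPM in control and 7.37 ± 2.03 CPM in RL (SD, n = 3). SDHC, a subunit of mitochondrial succinate dehydrogenase, was at 58.1 ± 4.37 and 72.1 ± 4.43 CPM. None of the 60 other pathway genes was among these 8 most alike or most opposed genes. Since just 8 were taken from all tested genes with a symbol, this is no result about the pathway.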

How the data were processed

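The authors deposited, per the file headers, an estimated count and an FPKM value (fragments scaled by transcript length and library size) for each gene in the 12 libraries. The labels name an RNeasy extraction and a SMARTer mRNA library kit. The sources used here name no aligner or counter. The submitters' processing notes name GRCm38 and mm10, a mouse build, while the deposited table places genes on rabbit sequences. Estimated counts were whole numbers that rose in steps of about 3.77 per fragment, so fragments and floors are approximate. An FPKM of 0.0001 stood for a count of 0 and was set to 0. Gene names came from the table, and 20171 gene identifiers were found in a RefSeq table of the assembly mOryCun1.1, used for names and the chromosome only.

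Counts were fitted with edgeR 4.0.16 (R 4.3.3) quasi-likelihood models (glmQLFit, glmQLFTest), with TMM scaling, filterByExpr, 4 group means and all 12 libraries. P-values were Benjamini-Hochberg adjusted over 18171 genes, and a gene was called below 0.05. CPM are counts over TMM-adjusted library size. SE is the size of the log2 fold over the square root of F, and 95% intervals are not adjusted for the number of genes. Intervals and SE describe the spread of these libraries, whose biological coefficient of variation was 0.578.

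The members and gene lists were chosen with earlier results of these data known. Named were all members, up to 3 genes of each pathway list by the smallest unadjusted p in RL minus control, CYR61 and ANKRD1, the 3 nearest genes with a symbol on each side of TEAD1, and the 5 most alike and 3 most opposed genes. A gene that this rule named is not reported here. VGLL2 and FOXF2 had counts of 0, and SCRIB and IGFBP3 had no entry by name. Other names (STK4, MOB1B, PTH, LOC103350395, LOC100349725) were chosen after values were seen. Alternatives used RLE scaling, other filters, DESeq2 1.42.0, limma 3.58.1 on log2(FPKM + 1) or log2(FPKM + 0.1), array weights, counts divided by the step, a replicate block, a covariate for the set of 5 libraries, fits without the 3 retinal libraries, of only the groups compared and without each library. A fit of the 7 libraries poor in rare transcripts was chosen after seeing the data. Sequences are not used here.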

Additional observations from a re-analysis of the deposited data

How the results depend on the processing

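TEAD1 in RL minus control had a log2 fold between −3.31 (without RL 1) and −2.67 (limma on log2(FPKM + 1)) over 19 alternatives, and its share of summed TEAD FPKM in RL was 4.11% to 7.25% with each RL library left out, against 20.5% of summed counts. None of the 837 log2 folds of the 9 other members under alternatives was called, though 51 had another sign, and no alternative called any of the 60 other pathway genes. The lowest adjusted p over alternatives was 0.0964 for YAP1 in GL minus control, 0.399 for WWTR1 and 0.184 for CYR61, both in RL minus control. The number of all genes called was small and moved, so the background shares in the report rest on few genes, and the cause was not tested. In RL minus control it was 2, and became 87 with DESeq2 (31 higher, 56 lower), 1 with limma on log2(FPKM + 1), 5 with only the 2 groups, 9 in the 7 libraries and 2 to 9 with each library left out (9 without control 1, 4 without RL 2). In blue_light minus control it was 3, and became 29 with DESeq2, 5 with limma on log2(FPKM + 0.1), 5 with array weights, 1 without the retinal libraries, 7 with only the 2 groups and 2 to 10 with each library left out (10 without control 1). In GL minus control it was 10, and became 147 with DESeq2, 62 with array weights, 1 without the retinal libraries, 28 with only the 2 groups, 5 in the 7 libraries and 3 to 21 with each library left out (3 without GL 1, 4 without control 3, 5 without control 2, 6 without GL 3, 21 without control 1 or GL 2). In RL minus blue_light it was 2, and became 5 with no filter, 81 with DESeq2, 6 and 9 with limma at pseudocounts of 1 and 0.1, 7 with array weights, 4 with counts divided by the step, 1 without the retinal libraries and 2 to 5 with each library left out (5 without RL 2, 4 without blue_light 2 or RL 1). In RL minus GL it was 13, and became 201 with DESeq2, 20 with limma on log2(FPKM + 1), 63 with array weights, 2 without the retinal libraries, 3 with only the 2 groups, 8 in the 7 libraries and 5 to 25 with each library left out (5 without GL 1, 8 without GL 3 or RL 3, 24 without GL 2, 25 without RL 2). The replicate numbers carry no stated pairing: correlations of deviations between libraries of the same number ran from −0.0738 to 0.235 over 18 pairs (median 0.0125). With a replicate block, TEAD1 stood at −2.97, the calls numbered 3, 2, 11, 2 and 9 in the order above, and no member was called.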
